A study of Mus musculus with 2 samples.

Results

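Collagen chain genes were examined in mouse pancreatic islets after partial pancreatectomy or a sham operation. The members are the genes whose symbol in the authors' deposited table is Col, a number, a and a number. There are 43 of them among 24288 gene symbols, on 68 probes. A member counts as measured when 1 or more of its probes stood well above background on 4 arrays or more, which 35 members did. The study took islets 3 days after surgery from C57BL/6J mice that were 8 weeks old. One group had lost 60% of the pancreas and the other had been sham-operated, and no allele or drug is named for either. Each group has 4 one-colour (Cy3) arrays of total RNA, called replicates 1 to 4 here, and values on arrays are given in that order. The sources used here do not tie the arrays to animals or islet preparations, so the p-values measure the spread between arrays, which may be partly technical.

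Collagens are secreted proteins in which chains wind into a triple helix. Fibrillar collagens pack into the fibrils that give connective tissue its tensile strength, and are made mainly by fibroblasts, stellate cells and related mesenchymal cells. Type IV collagen forms the sheet-like network of basement membranes, which in mouse islets lies around the capillaries and is known to be made largely by endothelial cells.

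The arrays differed in depth of signal and in the RNA they carried. The 75th percentile of processed signal ranged from 178 to 655, and sham replicate 3 was dimmest, with 48.1% of probes well above background against 59.1% to 71.4% on the other arrays. All 8 arrays lie on 1 slide, where column and group cannot be told apart. Ins1, an insulin gene, had a normalized log2 signal of 18.62 to 20.12 in sham and 18.69 to 19.63 after pancreatectomy, and 7 of 7 islet endocrine markers were measured. The liver gene Alb, for albumin, read 4.17, 3.99, 4.90 and 13.79 in sham and 14.89, 2.11, 4.34 and 12.62 after pancreatectomy, so 3 arrays stood far above the other 5. The B-cell gene Cd79b was at 12.85 on pancreatectomy replicate 3 and at most 6.08 elsewhere. In such bulk RNA, more cells of a type and more RNA per cell cannot be told apart.

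Most fibrillar chains had high values on pancreatectomy replicates 1 and 3 and values near the sham level on replicates 2 and 4, and no collagen gene passed the test. In limma, with Benjamini-Hochberg adjustment over 30864 features, 0 of the 35 measured chains were higher and 0 lower at an adjusted p of 0.05, against 0.544% of all features higher and 0.0842% lower. At an unadjusted p of 0.05, 3 chains were higher (Col5a2, Col15a1 and Col18a1) and 2 lower (Col4a3 and Col11a2), against 4.22% and 6.28% of all features. The median log2 difference of the 35 chains, pancreatectomy minus sham, was 0.54, with 26 positive and 9 negative. Over all features the median was -0.04 and 45.1% were positive. The means were at least 2-fold higher after pancreatectomy for 12 chains, against 2.97% of all features. They were at least 2-fold lower for 0 chains, against only 189 of all 30864 features.

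**Figure D1:**
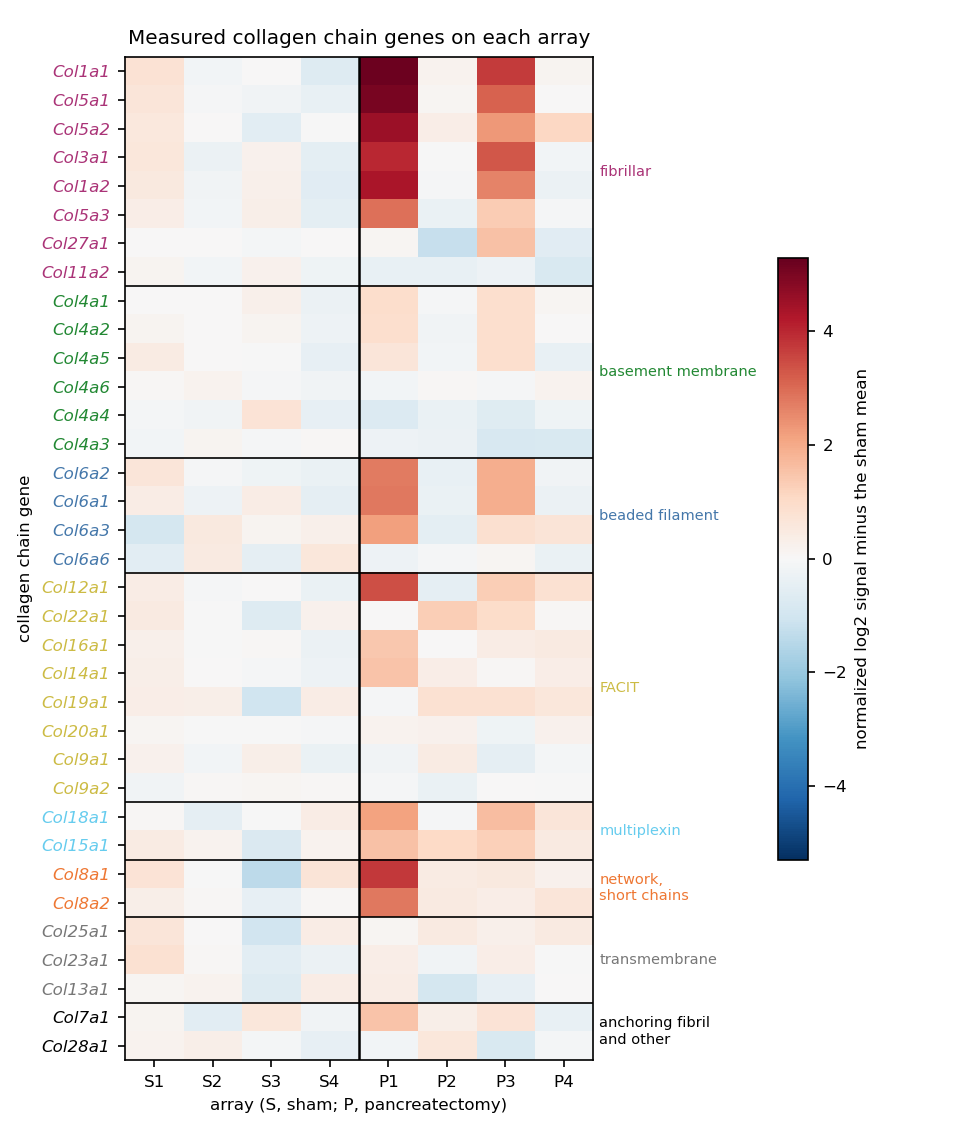
Normalized log2 signal of the 35 measured collagen chain genes (rows, grouped by class) on each of the 8 arrays (columns; S, sham; P, pancreatectomy), shown in colour as the difference from the mean of the 4 sham arrays. Columns P1 and P3 are deep red for most fibrillar chains, with Col1a1 at 15.06 and 13.57 against a sham mean of 9.87, while P2 and P4 are pale.

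Col1a1 and Col1a2 encode the chains of type I collagen, the main fibril of scar and tendon. The normalized log2 signal of Col1a1 was 10.65, 9.75, 9.89 and 9.20 on the sham arrays and 15.06, 10.04, 13.57 and 10.02 on the pancreatectomy arrays. Pancreatectomy replicates 1 and 3 lay above every sham array, and replicates 2 and 4 lay inside the sham range. The difference of the means was 2.30 ± 1.09 on the log2 scale (SE, 4 arrays against 4), a 4.93-fold difference that missed the threshold (limma adjusted p = 0.507). The authors' deposited table gives 2.31. The probe lies on chromosome 11 at 94813115 to 94813174 (mm9, the build of the array design). Col1a2 had 11.91, 11.21, 11.65 and 10.80 in sham and 15.72, 11.31, 14.02 and 11.08 after pancreatectomy. The same 2 arrays were high, and the difference was 1.64 ± 0.95 (limma adjusted p = 0.589). Its probe lies on chromosome 6 at 4490619 to 4490678 (mm9).

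The promoter of Col1a2 is printed as that of a fibrillar chain with a large spread between arrays. It comes from RefSeq on GRCm38.p6, a later build than that of the probes, and 35 of the 43 members matched that promoter table. The window holds 250 bases before and 50 from the annotated start, at chr6:4505368-4505667 on the plus strand. Capitals mark CCAAT, searched on both strands and so also as ATTGG.
Col1a2: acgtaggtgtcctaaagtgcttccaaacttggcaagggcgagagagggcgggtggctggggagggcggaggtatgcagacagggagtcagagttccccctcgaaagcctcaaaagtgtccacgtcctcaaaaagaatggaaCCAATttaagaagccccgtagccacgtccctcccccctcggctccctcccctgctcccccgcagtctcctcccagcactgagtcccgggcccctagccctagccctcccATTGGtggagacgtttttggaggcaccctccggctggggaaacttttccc
The letters begin at -109 and at 1 from the annotated start. They occur in 37.4% of 32851 promoter windows of this length and in the windows of 13 of the 35 matched collagen genes.

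Col3a1 encodes type III collagen, which mixes with type I in soft tissue. It had 10.47, 9.59, 10.13 and 9.37 in sham and 13.87, 9.89, 13.18 and 9.73 after pancreatectomy, with replicates 1 and 3 above the sham range. The difference was 1.78 ± 0.93 (limma adjusted p = 0.551), and the probe lies on chromosome 1 at 45405589 to 45405648 (mm9). Type V collagen takes part in starting type I fibrils. Its chain Col5a1 had 6.19, 5.46, 5.36 and 5.14 in sham and 10.56, 5.65, 8.66 and 5.56 after pancreatectomy, a difference of 2.07 ± 1.03 (limma adjusted p = 0.526). Col5a2 had 4.67, 4.14, 3.52 and 4.07 in sham and 8.62, 4.43, 6.41 and 5.20 after pancreatectomy. Here replicate 4 also lay above every sham array and replicate 2 did not, and the difference was 2.06 ± 0.79 (limma adjusted p = 0.414). The Col5a2 probe was well above background on 3 of 4 sham arrays, and with normexp background correction its difference was 1.09. Col5a3, another type V chain, had 7.53, 7.01, 7.45 and 6.66 in sham and 10.06, 6.82, 8.52 and 7.09 after pancreatectomy, a difference of 0.96 ± 0.65 with the same 2 arrays high.

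Col27a1 and Col11a2 departed from that pattern. Col27a1, known from cartilage, had 6.62, 6.58, 6.49 and 6.62 in sham and 6.68, 5.38, 8.14 and 5.99 after pancreatectomy. Replicate 3 and, narrowly, replicate 1 lay above the sham range and replicates 2 and 4 below it, and the difference was -0.03 ± 0.51. Col11a2, a chain of the cartilage collagen type XI, had 5.89, 5.61, 5.96 and 5.54 in sham and 5.36, 5.34, 5.50 and 4.94 after pancreatectomy. All 4 pancreatectomy arrays lay below the lowest sham array, replicate 3 narrowly, and the difference was -0.46 ± 0.18 (limma adjusted p = 0.412) and -0.24 with normexp.

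**Figure D2:**
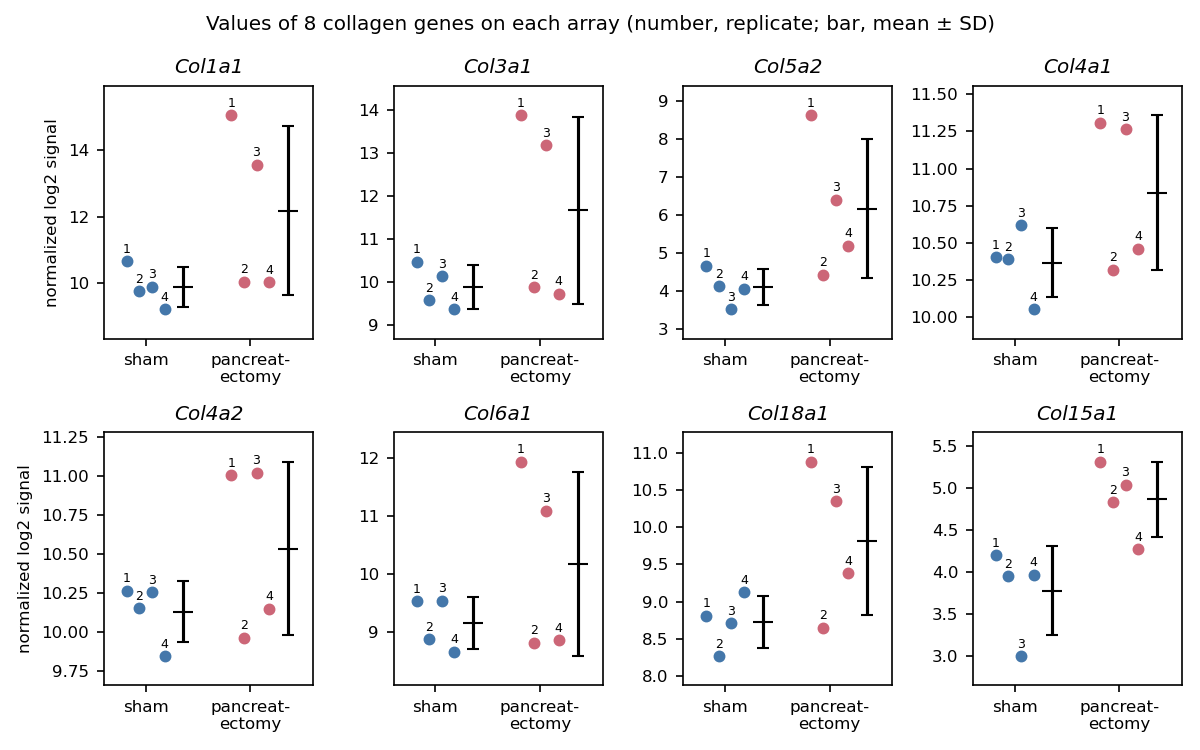
Normalized log2 signal of 8 collagen genes on each array (points, numbered by replicate; blue, sham; red, pancreatectomy; bars, mean ± SD over 4 arrays; each panel has its own axis). In Col1a1, Col3a1 and Col6a1 pancreatectomy replicates 1 and 3 stand above all sham arrays and replicates 2 and 4 do not, while in Col15a1 the lowest pancreatectomy array, at 4.27, is just above the highest sham array, at 4.20.

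The 6 type IV chains, called basement membrane chains here, had smaller differences. The multiplexins Col15a1 and Col18a1, also basement membrane collagens, are outside this class and had a difference of 1.09 each. Col4a1 and Col4a2 encode the chains of the widespread type IV network, that of vessels included. Col4a1 had 10.41, 10.39, 10.62 and 10.05 in sham and 11.31, 10.32, 11.27 and 10.46 after pancreatectomy. Col4a2 had 10.27, 10.15, 10.26 and 9.85 in sham and 11.00, 9.97, 11.02 and 10.15 after pancreatectomy. In both genes replicates 1 and 3 lay above the sham range and replicates 2 and 4 inside it. The difference of Col4a1 was 0.47 ± 0.26 (limma adjusted p = 0.573) and that of Col4a2 was 0.40 ± 0.27 (limma adjusted p = 0.633). Their probes lie on chromosome 8 at 11199009 to 11199068 and at 11448840 to 11448899 (mm9).

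Col4a1 and Col4a2 are neighbours transcribed in opposite directions, and their windows are printed because the pair had like values over the arrays. In RefSeq (GRCm38.p6) the annotated starts are 21 bases apart. The windows, chr8:11312777-11313076 on the minus strand and chr8:11312555-11312854 on the plus strand, share 78 bases. Capitals again mark CCAAT on either strand.
Col4a1: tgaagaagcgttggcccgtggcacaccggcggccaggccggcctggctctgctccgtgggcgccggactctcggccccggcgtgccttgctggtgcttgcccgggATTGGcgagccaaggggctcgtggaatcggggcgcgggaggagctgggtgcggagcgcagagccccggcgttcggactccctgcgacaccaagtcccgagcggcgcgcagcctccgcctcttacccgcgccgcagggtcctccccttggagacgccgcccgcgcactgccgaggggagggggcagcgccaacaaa
Col4a2: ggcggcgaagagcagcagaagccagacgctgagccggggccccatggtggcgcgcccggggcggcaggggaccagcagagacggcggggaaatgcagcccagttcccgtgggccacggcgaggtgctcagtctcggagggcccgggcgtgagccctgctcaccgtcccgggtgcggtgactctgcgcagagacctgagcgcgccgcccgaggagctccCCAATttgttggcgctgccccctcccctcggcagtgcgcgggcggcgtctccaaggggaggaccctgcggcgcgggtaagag
The letters begin at -145 in the Col4a1 window and at -32 in the Col4a2 window.

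The other type IV chains form networks of more restricted distribution, such as that of the kidney glomerulus. Col4a5 had a difference of 0.25 ± 0.32 and Col4a6 one of 0.01 ± 0.15. Col4a4 had 6.99, 6.90, 7.80 and 6.65 in sham and 6.34, 6.73, 6.42 and 6.84 after pancreatectomy, a difference of -0.50 ± 0.26, while its other probe gave -0.02. Col4a3 had 3.00, 3.29, 3.06 and 3.21 in sham and 2.86, 2.81, 2.30 and 2.33 after pancreatectomy. The groups did not overlap, with a difference of -0.57 ± 0.18 (limma adjusted p = 0.323). The Col4a3 probe was well above background on 3 sham arrays and 1 pancreatectomy array, and normexp gave -0.05. All pancreatectomy arrays lay below all sham arrays in 2 of the 35 chains, Col4a3 and Col11a2, against 5.29% of all features.

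Fibrillar and basement membrane chains were set side by side. The 8 measured fibrillar chains had a median difference of 1.71 (range -0.46 to 2.30). The 6 basement membrane chains, all of type IV, had one of 0.13 (range -0.57 to 0.47). The median deviation of the fibrillar chains from the sham mean was 4.15, -0.04, 2.46 and -0.12 on the pancreatectomy arrays. For the basement membrane chains it was 0.25, -0.16, 0.41 and -0.11. The gap between the classes was 3.91 on replicate 1 and 2.05 on replicate 3. On replicates 2 and 4 it was 0.12 and -0.0023, inside the -0.15 to 0.49 of the sham arrays. Above the sham range were 7 of 8 fibrillar and 3 of 6 basement membrane chains on replicate 1, and the same numbers on replicate 3. The share of all features above the sham range on each array was not counted, so these counts have no background. Over all features the median deviation was -0.15, 0.06, -0.12 and 0.01 on the pancreatectomy arrays. Without replicates 1 and 3, the arrays known to have the highest fibroblast and macrophage markers and high collagen values, so that lower medians follow from the choice, the class medians were -0.14 and -0.17, and without replicate 1 alone the fibrillar median was 0.89. The contrast between classes was not tested, since chains are not replicates.

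**Figure D3:**
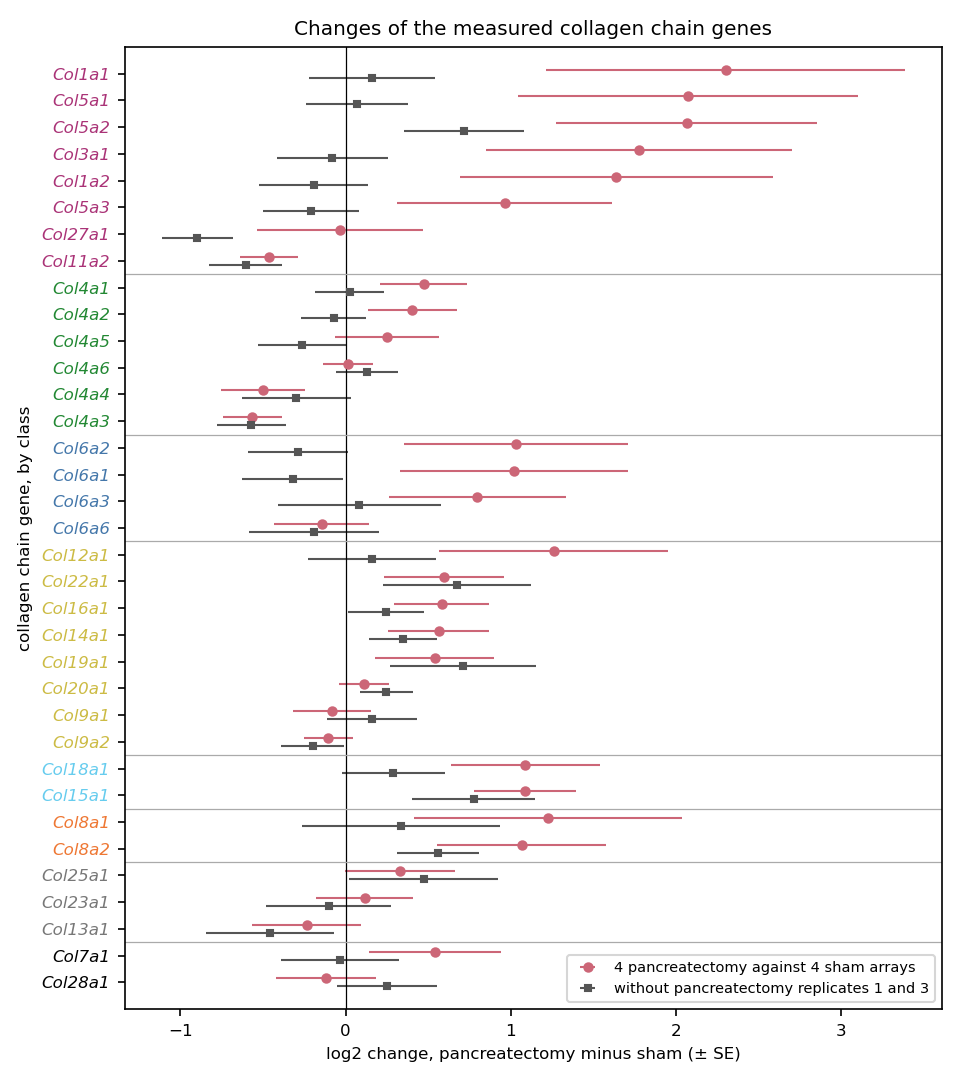
Log2 difference, pancreatectomy minus sham, of each measured collagen chain (± SE from limma), by class, with all 8 arrays (circles) and without pancreatectomy replicates 1 and 3 (squares). Col1a1 and Col5a1 go from 2.30 and 2.07 to 0.16 and 0.07, Col15a1 from 1.09 to 0.77, and Col4a3 is at -0.57 in both.

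Type VI collagen forms beaded filaments near cell surfaces, and its 3 main chains were high on the same arrays as type I. Col6a1 had 9.54, 8.89, 9.55 and 8.67 in sham and 11.95, 8.82, 11.10 and 8.86 after pancreatectomy, a difference of 1.02 ± 0.69 (limma adjusted p = 0.637). Col6a2 had 7.73, 7.05, 6.87 and 6.76 in sham and 9.87, 6.71, 9.05 and 6.92 after pancreatectomy, a difference of 1.03 ± 0.68 (limma adjusted p = 0.628), and 0.48 by its other probe. In both, replicates 1 and 3 lay above the sham range and replicates 2 and 4 did not. Col6a3 had 8.23, 9.67, 9.32 and 9.45 in sham and 11.33, 8.65, 10.03 and 9.85 after pancreatectomy, a difference of 0.80 ± 0.54 (limma adjusted p = 0.635), with replicates 1, 3 and 4 above the sham range and replicate 2 inside it. Col6a6, a further type VI chain, had -0.15 ± 0.29.

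The multiplexins Col15a1 and Col18a1 are basement membrane collagens too, but were not counted in the basement membrane class, which is type IV alone. A C-terminal piece of Col18a1, endostatin, is a known inhibitor of vessel growth. Col15a1 had the lowest adjusted p of the measured chains. It had 4.20, 3.95, 3.00 and 3.97 in sham and 5.32, 4.84, 5.04 and 4.27 after pancreatectomy. All 4 pancreatectomy arrays lay above the highest sham array, replicate 4 narrowly. The difference was 1.09 ± 0.31, or 2.12-fold (limma adjusted p = 0.259), and its other 2 kept probes gave 0.92 and 0.62. The Col15a1 signal was low, the probe well above background on 3 of 4 sham arrays, and normexp gave 0.30. Col18a1 had 8.81, 8.27, 8.71 and 9.12 in sham and 10.88, 8.65, 10.35 and 9.38 after pancreatectomy. Replicates 1, 3 and 4 lay above the sham range and replicate 2 inside it, and the difference was 1.09 ± 0.45 (limma adjusted p = 0.452), with 1.13 by its other probe. Without replicates 1 and 3 it was 0.29.

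Type VIII collagen forms a network of short chains under endothelium. Col8a2 had 5.35, 5.11, 4.58 and 5.10 in sham and 7.83, 5.51, 5.38 and 5.68 after pancreatectomy. All pancreatectomy arrays lay above all sham arrays, replicate 3 narrowly, and the difference was 1.07 ± 0.51, but 0.11 by its other probe. Col8a1 had 5.78, 5.02, 3.64 and 5.71 in sham and 8.76, 5.48, 5.54 and 5.27 after pancreatectomy, a difference of 1.23 ± 0.81, with replicate 1 alone above the sham range. Groups with all pancreatectomy arrays on top were thus found for 2 of the 35 chains, Col15a1 and Col8a2, against 2.99% of all features.

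The FACIT collagens bind to the surface of fibrils. Of 8 measured, 6 had positive differences, from 0.11 for Col20a1 to 1.26 ± 0.69 for Col12a1, and Col9a1 and Col9a2 were at -0.08 and -0.11. Col12a1, which binds type I fibrils, had 3.86, 3.39, 3.46 and 3.102 in sham and 6.88, 2.97, 4.74 and 4.26 after pancreatectomy, with replicate 2 below the sham range and the others above it. Its relative Col14a1 had 0.56 ± 0.31 and Col16a1 had 0.58 ± 0.29, with replicate 1 highest in both. Other kept probes gave 0.19 for Col14a1, -0.09 and 0.85 for Col16a1, and -0.08 for Col20a1. Col22a1 had 0.59 ± 0.36 and Col19a1 0.54 ± 0.36. Both were highest on replicate 2, Col19a1 narrowly, an array without high type I chains. Col7a1, which forms the anchoring fibrils of skin, had 0.54 ± 0.40 and Col28a1 -0.12 ± 0.30. The transmembrane chains Col25a1, Col23a1 and Col13a1 had 0.33, 0.12 and -0.24.

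The other 8 members did not pass the filter on dim probes. Col2a1, Col6a4, Col9a3 and Col17a1 were not well above background on any array. Col10a1 was above it on 1 pancreatectomy array, Col24a1 on 2 and Col6a5 on 3, and none of these on a sham array, while Col11a1 was above it on 1 sham and 2 pancreatectomy arrays. With no filter all 43 chains were tested and 0 passed (lowest limma adjusted p = 0.487). Of the 11 measured genes with several kept probes, 8 had the same sign on all of them and 3 had opposite signs (Col16a1, Col20a1 and Col4a6).

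Many collagen chains varied widely between the pancreatectomy arrays. The SD over those 4 arrays was 2.55 for Col1a1, 2.44 for Col5a1, 2.23 for Col1a2 and 2.17 for Col3a1, against a median of 0.26 over all features. Over the sham arrays the same genes had SDs of 0.60, 0.46, 0.49 and 0.51, against a median of 0.31. Of the 35 chains, 14 were among the 5% of features with the largest SD over the pancreatectomy arrays, 7 of the 8 fibrillar chains among them. Over the sham arrays 1 chain, Col8a1, was. None of the 6 type IV chains was in either group, while the multiplexin Col18a1 was among the 14. From the lowest to the highest pancreatectomy array Col1a1 differed 32.8-fold and Col4a1 1.98-fold, against 2.73-fold and 1.48-fold over the sham arrays.

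**Figure D4:**
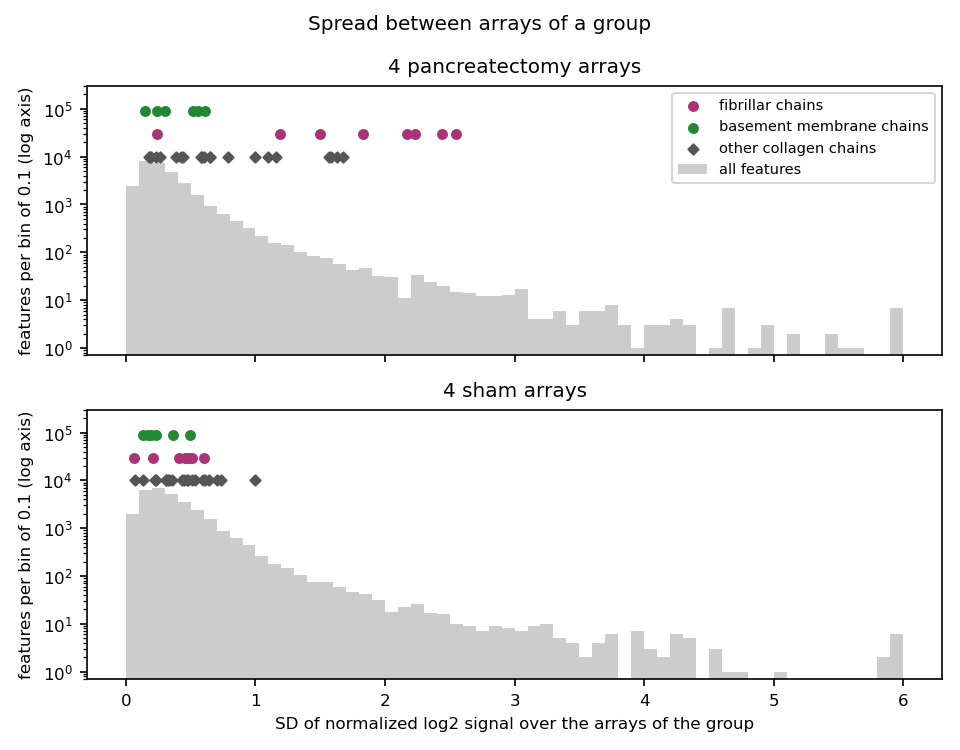
Number of features by SD of normalized log2 signal over the 4 arrays of a group (grey bars, log axis; the last bin holds all larger values), with the collagen chains marked by their SD (the height of the marks has no meaning). Over the pancreatectomy arrays the fibrillar chains reach 2.55, and over the sham arrays they reach 0.60, both for Col1a1.

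Most markers of mesenchymal cells and macrophages were high on the arrays with high fibrillar chains. Of 12 fibroblast, stellate and pericyte markers, 12 were measured and 0 passed, and 10, 1, 10 and 4 of them lay above the sham range on the pancreatectomy arrays. Their median deviation from the sham mean was 1.21, -0.05, 0.92 and 0.12, and their summed normalized signal was 9130.7 to 14245.3 in sham and 12235.9 to 29438.6 after pancreatectomy. Pdgfra, a receptor of fibroblasts, had 5.93, 5.13, 4.37 and 4.96 in sham and 7.75, 4.82, 8.37 and 4.75 after pancreatectomy. Of 8 macrophage markers 7 were measured (Cd163 was not) and 0 passed, with 6, 0, 6 and 1 above the sham range. The median deviations of the macrophage markers were 1.76, -0.31, 1.03 and -0.05. Itgam went the other way, with 13.76, 13.81, 14.50 and 13.43 in sham and 13.04, 13.97, 13.21 and 13.41 after pancreatectomy. The summed signal of the 7 macrophage markers, Itgam included, was 22883.4 to 37593.3 in sham and 22602.1 to 34086.2 after pancreatectomy. Of 6 duct markers, 3, 0, 3 and 0 lay above the sham range, with median deviations of 0.68, -0.48, 0.60 and -0.35 and sums of 3794.5 to 5842.9 and 3568.9 to 5651.4. For the counts above the sham range, the share of all features was not counted. The part of these cells in the collagen values was not tested.

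Other marker lists ran differently over the pancreatectomy arrays. The 10 endothelial markers had median deviations of 0.17, 0.13, 0.07 and 0.0015, with sums of 26892.8 to 37949.6 in sham and 30975.8 to 40414.1 after pancreatectomy, though Pecam1 and Cdh5 were highest on replicates 1 and 3. The 8 acinar markers had median deviations of -0.81, -0.02, 1.33 and 0.24, and the 8 Schwann cell markers 0.09, 0.39, -0.13 and 0.41. The 7 islet endocrine markers had -0.50, 0.40, -0.25 and -0.06, lowest on replicates 1 and 3, with sums of 1672697.7 to 3849411.3 in sham and 1618859.8 to 2939654.6 after pancreatectomy.

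Transcripts of liver, gut and B cells stood apart on some of the same arrays. The 5 measured liver markers of 6 had median deviations of 6.33, -1.77, -0.02 and 5.11 on the pancreatectomy arrays. On the sham arrays the medians were -1.77, -2.72, -1.34 and 5.95, so sham replicate 4 raised the sham mean used as the reference. The -0.02 of pancreatectomy replicate 3 thus lay above sham replicates 1 to 3. The 4 gut markers had -0.13, -0.31, 1.39 and 0.24, and the 4 measured B-cell markers of 5 had -0.28, -1.04, 7.19 and 0.42. Pancreatectomy replicate 1, with the highest Col1a1 (15.06), also had the highest Alb (14.89). Pancreatectomy replicate 3, with Col1a1 at 13.57, had Cd79b at 12.85 and the gut gene Fabp2 at 12.83. Sham replicate 4 and pancreatectomy replicate 4, with Alb at 13.79 and 12.62, had Col1a1 at 9.20 and 10.02. Pancreatectomy replicate 2, with Alb at 2.11 and Cd79b at 3.28, had Col1a1 at 10.04. The part of such tissue in the collagen values was not tested. Without these 4 arrays (sham replicate 4 and pancreatectomy replicates 1, 3 and 4), 3 sham arrays and 1 pancreatectomy array remain, and the fibrillar median was -0.23. The arrays left out include pancreatectomy replicates 1 and 3, known to have the high fibrillar values, so a lower median follows from the choice.

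**Figure D5:**
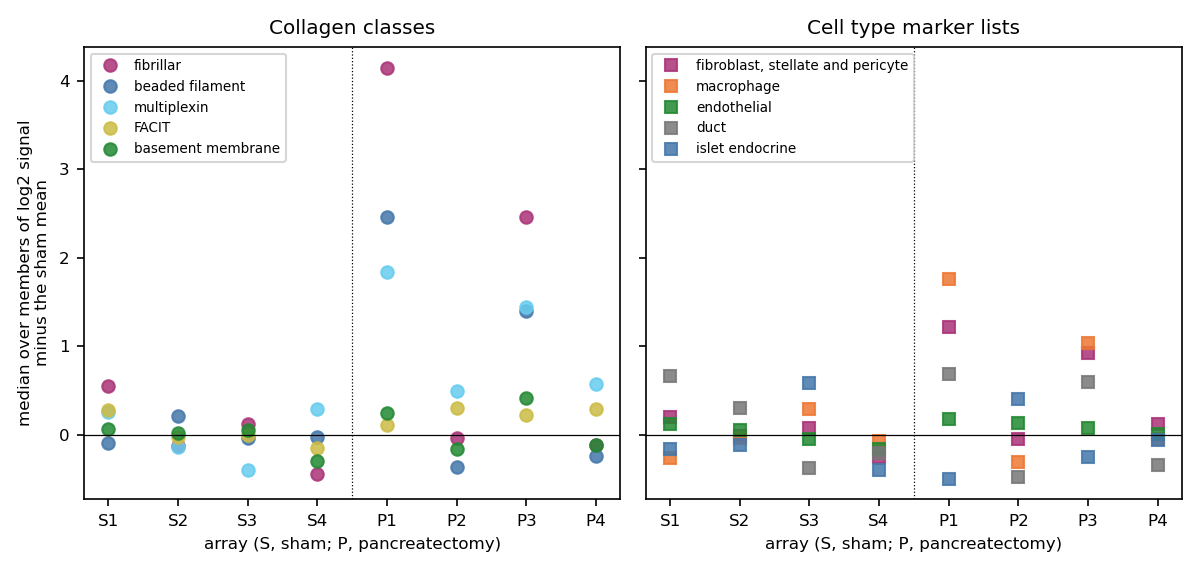
Median over members of the normalized log2 signal minus the mean of the 4 sham arrays, for 5 collagen classes (left, circles) and 5 cell type marker lists (right, squares) on each array (S, sham; P, pancreatectomy). The fibrillar median is at 4.15 on P1 and 2.46 on P3 and the fibroblast marker median at 1.21 and 0.92.

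Genes that make, bind or accompany collagen were taken from lists, and their counts stand against 4.22% of all features higher and 6.28% lower at an unadjusted p of 0.05, and 45.1% positive. Of 32 genes of collagen biosynthesis 28 were measured and 0 passed, with a median difference of 0.12, 23 positive, and 4 higher and 0 lower at that unadjusted p. Serpinh1, the collagen chaperone of the endoplasmic reticulum, had 10.69, 9.28, 10.07 and 9.16 in sham and 11.99, 9.99, 10.95 and 9.74 after pancreatectomy, a difference of 0.87 ± 0.53. Fkbp10, another chaperone of collagen, had 1.40 ± 0.71 and Loxl1, a crosslinking oxidase, 1.35 ± 0.82, with replicates 1 and 3 highest in both. Sparc, which binds collagen outside the cell, had 0.65 ± 0.40, and P4ha1, a prolyl hydroxylase subunit, -0.16 ± 0.37. The crosslinking oxidase gene Lox was not measured.

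Of 11 collagen receptors 10 were measured and 0 passed, with a median of 0.11 (-0.02 with median scaling), 6 positive, and 1 higher and 1 lower at an unadjusted p of 0.05. Itga11, an integrin subunit for fibrillar collagen on mesenchymal cells, had 5.44, 5.03, 5.56 and 4.75 in sham and 8.87, 4.93, 6.70 and 5.17 after pancreatectomy, a difference of 1.22 ± 0.77 with replicates 1 and 3 above the sham range. Itga1, a subunit that also binds type IV collagen, had 0.75 ± 0.24. The discoidin receptors Ddr1 and Ddr2 had -0.46 ± 0.19 and 0.21 ± 0.29.

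Of 16 partners of type IV collagen in the basement membrane 16 were measured and 0 passed, with 14 positive, a median of 0.37, and 3 higher and 1 lower at an unadjusted p of 0.05. Lama1, a laminin chain, had 3.95, 3.55, 2.95 and 2.67 in sham and 7.22, 4.74, 6.78 and 2.80 after pancreatectomy, a difference of 2.11 ± 0.88 and of 0.79 with normexp. It was well above background on 2 sham and 3 pancreatectomy arrays. Lama4, a laminin chain of endothelial basement membrane, had 0.63 ± 0.31, Lamb1 0.42 ± 0.26, Lamb3 0.74 ± 1.00 and Nid1, which links laminin to type IV collagen, 0.71 ± 0.25. Of 9 proteoglycans that coat collagen fibrils 6 were measured and 0 passed, with 6 positive, 1 higher and 0 lower at an unadjusted p of 0.05, and a median of 0.74. Lum, which encodes lumican, had 1.14 ± 0.50 and Ogn, which encodes osteoglycin, 1.04 ± 0.59. Above the sham range were 6, 0, 4 and 0 of the 6 on the pancreatectomy arrays, with the share of all features not counted. Of the 6, 2, Dcn and Lum, are also in the fibroblast list.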

How the data were processed

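The deposited scanner output holds spot intensity on a linear scale, detrended and corrected for background array by array, and other flags of 0 or 1. Per the file headers this was done in Feature Extraction 10.7.3.1, and per the submitters' processing notes in 9.1. The authors' deposited table holds group means of intensity and of log2 values after a 75th percentile shift in GeneSpring GX 12.5, per the file headers. Its log base and centring are not stated, and its differences matched log2 here. It gave the gene symbols. One sham array was assigned by its sample record, since the sham description repeats 1 array position.

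Outlier spots were left out and log2 processed signal was shifted by each array's 75th percentile. Probes well above background on 4 arrays or more, with 3 values or more per group, were kept, and a gene is its brightest kept probe. Limma 3.58.1 in R 4.3.3 compared 4 with 4 arrays, with Benjamini-Hochberg adjustment (0.05). The fit was tried on simulated data with equal spread in both groups. Most fibrillar chains here had unequal spread, so that trial does not cover them. The number of arrays limits the precision (median SE 0.22 over all features, but 1.09 for Col1a1). The normexp alternative used the median spot signal, offset 50. Exon and UTR annotation was not used here. All measured chains are described, with values on every array for main chains and the 3 largest differences in each direction. In other lists, fixed main genes and the 2 largest differences are named, and any other gene was chosen after its values were seen. Members and lists were chosen with earlier results of these data known.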

Additional observations from a re-analysis of the deposited data

How the results depend on the processing

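Of the measured genes of the symbol rule (Col26a1 is outside it), 0 passed the test under the 24 alternatives run, and 1 to 16, 5 in the reported setting, were at an unadjusted p under 0.05. In slide row 1 alone and slide row 2 alone, 0 of all features were called higher and 0 lower. The 0 chains passing there thus carry no information. Without the 4 arrays with liver, gut or B-cell transcripts, 1 pancreatectomy array remains, so that fit is read for its differences alone. The lowest adjusted p, 0.0503, was that of Col15a1 (0.96) with limma array weights, where 1 gene of collagen biosynthesis and 1 basement membrane partner were called higher. Over all features 168 were higher and 26 lower; the counts were 54 and 6 with normexp, 18 and 0 with no scaling, 68 and 4 with no filter, 93 and 33 with probes above background on 8 arrays, 130 and 48 with median scaling, 407 and 362 with array weights, 111 and 11 with the slide row as a block, 56 to 165 and 3 to 32 without 1 array, and 14 and 1 without pancreatectomy replicates 1 and 3. Median scaling put the median of all features at -0.16, and the receptor median at -0.02. Leaving out 1 array gave medians of 0.89 to 2.34 for fibrillar and 0.02 to 0.22 for basement membrane chains, 0.80 to 2.13 for their difference, 0.12 to 0.22 for biosynthesis, -0.01 to 0.18 for receptors, 0.27 to 0.44 for basement membrane partners and 0.35 to 0.98 for proteoglycans. Slide row 1 and row 2 alone, 2 arrays against 2, gave fibrillar medians of 1.90 and 1.52 and basement membrane medians of -0.08 and 0.34. No paired analysis was possible because the labels number no arrays across groups. Without pancreatectomy replicates 1 and 3, left out as the arrays with the highest fibroblast and macrophage markers, with the high collagen values known, the fibrillar median was -0.14, the basement membrane median -0.17, their difference 0.03 and the receptor median -0.02, and signs turned for Col1a2 (-0.19), Col3a1 (-0.08), Col4a2 (-0.07), Col6a1 (-0.32), Col6a2 (-0.29), P4ha1 (0.22), Sparc (-0.04), Ddr2 (-0.31), Loxl1 (-0.25), Itga11 (-0.15) and Lamb3 (-1.04). Without the 4 arrays with liver, gut or B-cell transcripts, 3 sham arrays against pancreatectomy replicate 2, whose spread is assumed to be that of the sham arrays, the fibrillar median was -0.23, the basement membrane median -0.28 and their difference 0.05, and signs turned for Col1a1 (-0.05), Col1a2 (-0.28), Col3a1 (-0.18), Col4a1 (-0.15), Col4a2 (-0.26), Col6a1 (-0.50), Col6a2 (-0.51), Col6a3 (-0.42), Col5a1 (-0.02), Serpinh1 (-0.02), P4ha1 (0.19), Sparc (-0.24), Ddr2 (-0.19), Fkbp10 (-0.13), Loxl1 (-0.45), Itga11 (-0.42), Lamb3 (-1.21) and Ogn (-0.03). P4ha1 turned without sham replicate 1 (range without 1 array -0.33 to 0.19) and in slide row 2 alone (0.05). Without pancreatectomy replicate 3, Ddr2 (-0.02 to 0.42 without 1 array) and Lamb3 (-0.07 to 1.39) turned, and Lamb3 was at -0.44 in slide row 1 alone. The 4 arrays with liver, gut or B-cell transcripts include pancreatectomy replicates 1 and 3, so lower fibrillar medians follow from either choice. The cause of the turned signs was not tested. Signal near background limits Col5a2, Col15a1, Col4a3, Col12a1 and Lama1. Col8a1, Col8a2, Col19a1, Col22a1, Col25a1, Col4a5, Col13a1, Col23a1, Col28a1 and Lamb3 share this limit, with probes well above background on only 3 of 4 sham arrays. For Lamb3 this held on only 2 pancreatectomy arrays.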

Other observations

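One collagen chain lies outside the symbol rule because the authors' deposited table lists it as Emid2, an older name of Col26a1. It was looked at after its value was seen. Its normalized log2 signal read 7.09, 7.06, 5.98 and 6.91 in sham and 4.94, 5.37, 5.64 and 5.16 after pancreatectomy. The groups did not overlap, and replicates 2 and 4 were low along with 1 and 3. All pancreatectomy arrays lay below all sham arrays in 5.29% of all features. The difference was -1.48 ± 0.28 (SE, 4 arrays against 4), with limma adjusted p = 0.0654, and its other probe gave -2.03. It passed the threshold with median scaling (-1.61), quantile scaling (-1.59), the filter of 8 of 8 arrays (-1.48), the mean of its probes (-1.76), array weights (-1.69) and without sham replicate 3 (-1.75), and in none of the other alternatives, where normexp gave -0.85. Over all alternatives its limma adjusted p ran from 0.00318 with array weights to 1 with no scaling.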
